A study of Rattus norvegicus with 24 samples.

Results

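Livers of old rats were compared with livers of young rats by RNA-seq, with 3 libraries from animals aged 24 months set against 3 from animals aged 6 months. These 6 libraries were taken by their labels out of the 24 of the series, which also holds brain RNA-seq and ribosome profiling of both organs from the same animals. The labels used here give age and tissue but no strain, sex or treatment. A code in the titles, read here as that of the animal, ties each liver RNA-seq library to the other libraries of the same rat, and p-values measure the spread between animals of one age. The RNA-seq libraries were made from total RNA with a stranded kit. Each count table lists 22938 transcripts, of which 7083 had 0 counts in all 6 liver libraries and 12198 had enough counts to be tested. The other 3657 had counts but were left out by the filter on low counts.

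The liver is made up mostly of hepatocytes, which secrete plasma proteins and carry out most of the body's metabolism of lipids, amino acids and foreign compounds. A few transcripts of secreted proteins therefore take a large part of the counts of a liver library, and a change in one of them moves the share left for all others. Ribosome profiling sequences the pieces of mRNA that ribosomes protect, so the footprints of the same livers give a second readout of which transcripts were in use. The transcript identifiers are not paired with gene names in the files and 0 of 22938 matched the reference gene table, so transcripts are described by their abundance, organ distribution and length-like value, and their functions are not stated. The defining markers of liver could not be looked up for the same reason. Liver libraries correlated with each other at r = 0.953 to 0.993 and with brain RNA-seq libraries at 0.403 to 0.592 over the 12198 transcripts (Pearson's r of log2(CPM + 0.5), where CPM is the count scaled to a common library total).

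Totals were 17932008 to 21134842 counts in young and 25444467 to 28664906 in old liver, so every old library was the deeper one. Thinning to equal totals removes the difference in the number of counts only. Anything else that goes with depth cannot be told apart from age. Every pair of libraries differed by more than counting noise, with a chi-square of 17.8 or more for each degree of freedom. The library of young animal 1 stood apart from its group. It correlated at 0.978 and 0.976 with young animals 2 and 3, which correlated at 0.993 with each other, and at 0.984 with old animal 2. It was the young library farthest from the other 2 for 54.0% of transcripts, against 21.6% and 24.4% for young animals 2 and 3. Among the old libraries that of animal 3 was the farthest for 44.5%, against 24.7% and 30.8% for animals 1 and 2. The counts over all transcripts are also given with each of these libraries left out in turn, and no fit left out both. Calls by abundance, organ and length class are given in this way for some of the classes. The calls in crossed classes come from all 6 libraries.

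Many transcripts differed a little between old and young liver, and the number beyond a strict threshold depended on the test and on the animals. Of 12198 transcripts, 2 were called at an adjusted p under 0.05 (0.0164%), both higher in old animals, and 0 were lower (edgeR's quasi-likelihood test with Benjamini-Hochberg adjustment). At the same threshold DESeq2 called 1083 and limma-voom 0, and edgeR called 143 with no filter on low counts, 2254 with the spread taken over liver and brain RNA-seq, and 641 without young animal 1. At an adjusted p under 0.10 there were 901 (7.39%), 354 higher (2.9%) and 547 lower (4.48%). Those 901 did not begin at the threshold of 0.10: 114 passed at 0.06, 204 at 0.07 and 560 at 0.08. An unadjusted p under 0.05 was found for 2819 transcripts (23.1%), 1356 higher (11.1%) and 1463 lower (12%), against 14% of transcripts in brain RNA-seq and 12.2% in liver footprints of the same animals. The higher of the 901 rose by a median of 0.90 on the log2 scale, from 0.36 to 6.78, and 154 of them were at least 2-fold higher. For the lower ones the median was -0.70, from -5.17 to -0.33, and 133 were at least 2-fold lower. Over all tested transcripts the median log2 fold change was 0.010 with quartiles of -0.22 and 0.25, and 3.75% were at least 2-fold higher and 2.18% at least 2-fold lower.

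**Figure D1:**
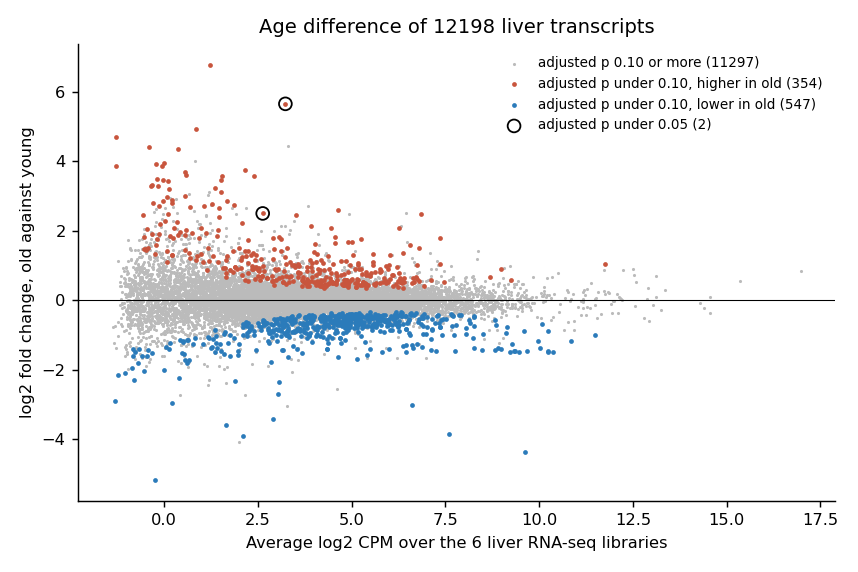
Each point is 1 of 12198 transcripts, with its average log2 CPM over the 6 liver RNA-seq libraries on the x axis and its log2 fold change, old against young, on the y axis. The 354 transcripts higher in old liver at an adjusted p under 0.10 had a median average log2 CPM of 3.71, and the 547 lower ones 4.70. Over all tested transcripts it was 3.64. Rings mark the 2 with an adjusted p under 0.05.

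The count of 901 changed with single animals left out. It was 1720 without young animal 1 (801 higher, 919 lower), of which 811 were among the 901. Leaving out old animal 3 gave 349 (185 higher, 164 lower). Leaving out old animal 2 gave 702. Leaving out young animal 3 gave 1, old animal 1 gave 1 and young animal 2 gave 0, and edgeR's unadjusted p was under 0.05 for 1979, 2140 and 1688 transcripts in those 3 fits. In all 901 the old and the young values did not overlap, which 29.7% of all tested transcripts also showed, 14.3% higher and 15.4% lower in old liver. DESeq2 called 1612 at an adjusted p under 0.10 (717 higher, 895 lower), 899 of them among the 901, and limma-voom called 787 (293 higher, 494 lower). Each fit with 1 library left out had fewer degrees of freedom than the main one, and the counts of these fits ran from 0 to 1720. A count lost on leaving out 1 library is not a count of transcripts that depend on it. Why the counts differed between these fits was not tested.

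The 4 transcripts named here are the 2 rises called at the strict threshold and, as it called no fall, the 2 largest falls at the looser one among transcripts with an average log2 CPM of at least 0. A larger fall, -5.17, was called below that abundance, for ENSRNOT00000012381, which was named after its values were seen. ENSRNOT00000010238 stood at 0.594, 0.302 and 0.155 CPM in young animals 1 to 3 and at 23.0, 13.7 and 17.6 CPM in old animals 1 to 3 (log2 fold change 5.66, SE 0.386, adjusted p = 0.0125 by edgeR). Young counts were 12, 6 and 3, against 308 to 609 in old liver. Its footprints separated the ages as well, with 0 to 0.530 CPM in young and 9.78 to 23.0 CPM in old livers. The second rise, ENSRNOT00000004408, went from 1.63, 1.71 and 2.07 CPM to 12.2, 8.08 and 10.5 CPM (log2 fold change 2.50, SE 0.21, adjusted p = 0.0237 by edgeR). In both transcripts the lowest old liver lay several times above the highest young one. The brain held the first at 14.98 to 19.4 CPM in both ages, and the second at 2.59 to 7.02 CPM in young and 6.91 to 12.01 CPM in old animals. Each call was lost in 4 of 17 alternatives: by limma-voom (adjusted p = 0.0661), and by edgeR on leaving out young animal 2 (0.203), old animal 1 (0.0652 and 0.117) or young animal 3 (0.0673 and 0.176).

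The largest fall within that abundance limit, that of ENSRNOT00000034784, was not evenly spread over the young animals. Its level was 98.1 CPM in young animal 1, 2214 in young animal 2 and 2199 in young animal 3, and 67.5, 68.8 and 81.9 CPM in the old animals (log2 fold change -4.37, SE 1.07, adjusted p = 0.0909 by edgeR). Young animal 1 thus lay close above the old livers and far below the other 2 young ones. The footprints of the same livers repeated this split, with 159 CPM in young animal 1, 3106.5 and 2909 in young animals 2 and 3 and 116 to 129 CPM in old animals. Without young animal 1 the log2 fold change was -4.92 (adjusted p = 0.000819 by edgeR), and the call at 0.10 was lost in 10 of 17 alternatives, among them those that left out any other single library. The transcript is liver-enriched, at 0 CPM in 5 of 6 brain RNA-seq libraries and at 3.31 CPM in that of old animal 2. ENSRNOT00000022049 fell from 4.06, 10.6 and 9.73 CPM to 1.02, 0.488 and 0.106 CPM (log2 fold change -3.91, SE 0.654, adjusted p = 0.0581 by edgeR), here too with young animal 1 the lowest of its group. Its old counts were 27, 11 and 3, against 82 to 210 in young liver. This one is a brain-enriched transcript with 231 to 274 CPM in brain RNA-seq, and its call at 0.10 was lost in 4 of 17 alternatives.

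**Figure D2:**
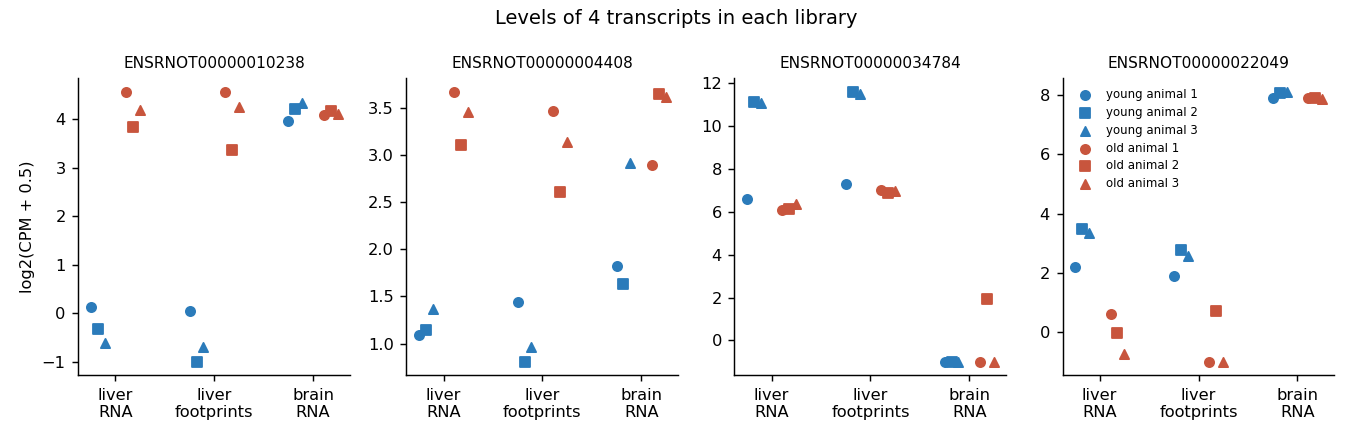
Levels of the 4 named transcripts as log2(CPM + 0.5) in liver RNA-seq, liver footprints and brain RNA-seq, with 1 point for each animal, young in blue and old in red. ENSRNOT00000010238 and ENSRNOT00000004408 are higher in all 3 old livers in both assays, and young animal 1 lies beside the old animals for ENSRNOT00000034784.

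Counts were more concentrated in 2 of the 3 old livers than in any young one, and 1 transcript gained more of the counts than any other. ENSRNOT00000003921, the most abundant, which is named for its rank, took 10.5%, 7.91% and 10.1% of counts in young animals 1 to 3 and 17.0%, 18.7% and 11.2% in old animals 1 to 3. Old animal 3 lay just above the young range, and the other 2 old animals well above it. The exact permutation p was 0.1, the smallest that 3 against 3 allows (two-sided). Scaled by TMM factors, its old and young values overlapped. As a single transcript it did not pass (log2 fold change 0.84, SE 0.318, adjusted p = 0.175 by edgeR). The 10 most abundant transcripts held 26.4 ± 2.21% in young and 32.5 ± 4.07% in old liver (SD, n = 3; exact permutation p = 0.2), and the next 90 held 25.3 ± 0.560% and 23.5 ± 0.588% (exact permutation p = 0.1). It took 68 to 97 transcripts to reach 50% of the counts in young and 42 to 71 in old libraries (exact permutation p = 0.2). Summed over all transcripts with a larger mean share in old liver, the gain was 12.9 percentage points, and the most abundant transcript made up 6.12 of them. Of the 10 most abundant transcripts 8 were liver-enriched and 6 had a positive log2 fold change, and the lowest adjusted p among them was 0.130 (edgeR).

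Abundance classes were set by the average log2 CPM over all 6 libraries, a count level not divided by length. Class medians were above 0 under a log2 CPM of 4 and below 0 between 4 and 10, and all were small against the spread within a class, whose quartiles lay at -0.42 and 0.59 under 0 and at -0.20 and 0.19 between 4 and 6. The median log2 fold change was 0.073 for the 816 transcripts under 0 and 0.096 for the 2232 between 0 and 2, and 53.8% and 56.6% of them were positive. It was 0.011 between 2 and 4, -0.0075 between 4 and 6, -0.014 between 6 and 8, -0.040 between 8 and 10 and 0.041 for the 96 transcripts at 10 and over. Among all tested transcripts 51.1% were positive.

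At an adjusted p under 0.10 the share called lower was larger at high than at low abundance. The share called higher lay near that of all tested transcripts, 2.9%, in each class up to a log2 CPM of 8. Under a log2 CPM of 0, 26 transcripts were higher (3.19%) and 17 lower (2.08%), and between 0 and 2 it was 68 (3.05%) and 42 (1.88%). Between 2 and 4 there were 99 higher (2.59%) and 144 lower (3.76%). Between 4 and 6 it was 121 (3.45%) and 214 (6.10%), and between 6 and 8 36 (2.60%) and 95 (6.86%). At 8 to 10 it was 3 and 27, so that 8.11% of the class were lower and 0.901% higher, and at 10 and over 1 and 8. Over all tested transcripts these shares were 4.48% and 2.9%. Changes of at least 2-fold were most frequent at low abundance. Under 0, 13.2% of transcripts were at least 2-fold higher and 8.33% at least 2-fold lower, against 0.901% and 5.11% at 8 to 10.

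This gradient was not the same in each old animal, and it changed with the measure of abundance. The median log2 deviation of the class from 8 to 10 from the mean of the 6 libraries was 0.088, 0.0061 and -0.16 in old animals 1 to 3 and 0.13, -0.0079 and -0.021 in young animals 1 to 3. The ages overlapped in that class, as they did in every other abundance class. Old animal 3 had the lowest median of the 6 libraries in each class from 4 upwards and the highest in both classes under 2. Without old animal 3 the medians were -0.048 under 0 and 0.032 at 8 to 10, with 10 and 3 transcripts higher and lower under 0 and 2 and 9 at 8 to 10. Without young animal 1 the class from 8 to 10 had 17 higher and 28 lower. Over all tested transcripts it was 801 and 919 in that fit, and 185 and 164 without old animal 3. With classes set by the level of the footprints, the class from 6 to 8 held 54 higher (4.75%) and 46 lower (4.04%). That from 8 to 10 held 3 (0.958%) and 7 (2.24%). With classes set by CPM per 1000 units of the length-like value, the class from 8 to 10 held 28 higher (3.31%) and 36 lower (4.26%). At 10 and over it was 6 (2.05%) and 18 (6.14%). Over all tested transcripts in the main fit, 2.9% were higher and 4.48% lower.

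**Figure D3:**
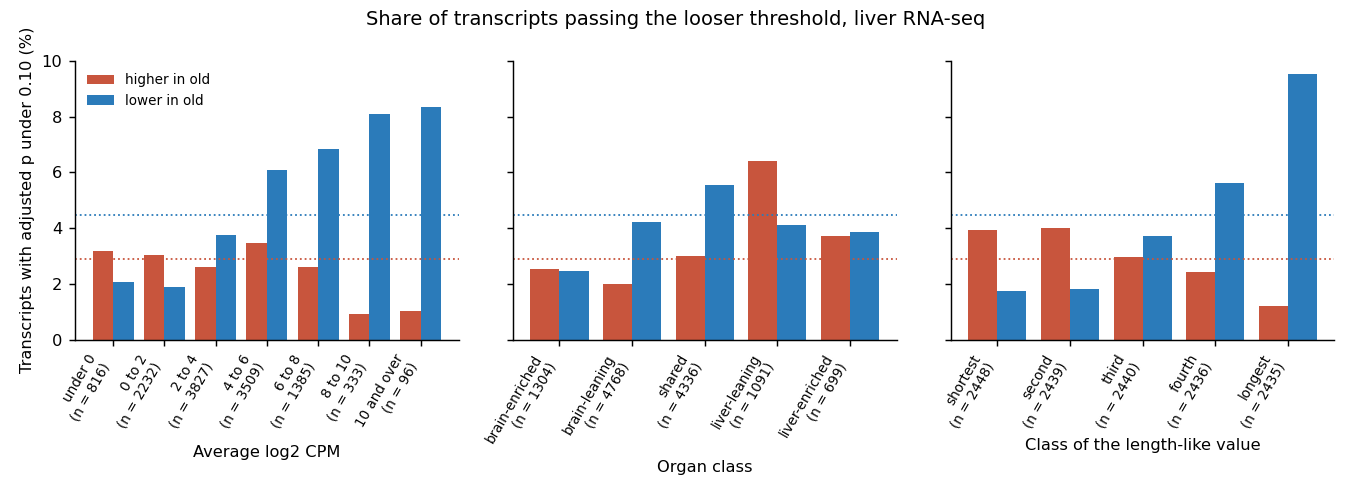
Percentage of transcripts with an adjusted p under 0.10 in liver RNA-seq that were higher (red bars) or lower (blue bars) in old animals, by abundance class, organ class and class of the length-like value. Dotted lines are the shares over all tested transcripts, 2.9% higher and 4.48% lower, and the lower share reaches 9.53% in the longest class.

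Organ classes compared the mean log2(CPM + 0.5) of the 6 liver RNA-seq libraries with that of the 3 young brain RNA-seq libraries. Both liver ages entered equally, and a difference of 3 or more made a transcript liver-enriched, -3 or lower brain-enriched, and -1 to 1 shared. At an adjusted p under 0.10 the 699 liver-enriched transcripts had 26 higher (3.72%) and 27 lower (3.86%), with a median log2 fold change of -0.027. The 1304 tested brain-enriched transcripts had 33 higher (2.53%) and 32 lower (2.45%) and a median of 0.043. At edgeR's unadjusted p under 0.05, 10.3% of liver-enriched transcripts were higher and 12.4% lower. For brain-enriched ones these shares were 12.5% and 8.21%, and for all tested transcripts 11.1% and 12%. The shared class of 4336 had 130 higher (2.998%) and 241 lower (5.56%), and the brain-leaning class of 4768 had 95 (1.99%) and 202 (4.24%), where all tested transcripts had 2.9% and 4.48%. In the liver-leaning class, with a difference of 1 to 3, 70 of 1091 were higher (6.42%) and 45 lower (4.12%). Leaving out young animal 1 made these counts 125 and 83, leaving out old animal 3 made them 47 and 15, and leaving out old animal 2 made them 49 and 46. They were 35 and 30 with the replicate number as a block and 48 and 41 with the length trend removed. Over all tested transcripts the counts were 801 and 919 without young animal 1 and 185 and 164 without old animal 3. They were 253 and 449 without old animal 2, 158 and 283 with the block and 240 and 439 with the trend removed. Within the liver-leaning class the 245 transcripts under a log2 CPM of 2 counted 22 higher and 6 lower, with a median of 0.38. The 278 at 6 and over counted 9 and 12, with a median of 0.014.

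By library, the liver-leaning class had median deviations of 0.031, -0.043 and -0.071 in young animals 1 to 3 and of 0.051, 0.088 and -0.037 in old animals 1 to 3. Young animal 1 and old animal 3 each lay on the side of the other age. The liver-enriched class varied more widely, with 0.13, -0.018 and -0.050 in young and 0.080, 0.10 and -0.21 in old animals. Old animal 3 had the lowest liver-enriched median and the highest brain-enriched median, 0.10, of the 6 libraries. Without old animal 3 the liver-enriched class had 20 higher and 13 lower and a median of 0.049, and without young animal 1 it had 85 higher and 46 lower and a median of 0.026. The liver-leaning class kept a positive median in all 17 alternatives, from 0.027 to 0.13.

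In shares of counts, liver-enriched transcripts held 56.8%, 52.1% and 53.1% in young animals 1 to 3 and 61.0%, 62.2% and 56.3% in old animals 1 to 3. Old animal 3 lay within the young range, and the exact permutation p was 0.2. Without the most abundant transcript the class held 44.5 ± 1.64% of all counts in young and 44.2 ± 0.824% in old liver (SD, n = 3, exact permutation p = 0.8). That transcript still counted in the library total, so its larger share in old liver lowers the share of every other class. Shares of the counts left without it were not computed, so these values do not show that the rest of the class was unchanged. Shared transcripts held 23.3%, 26.2% and 25.2% in young and 19.9%, 19.4% and 22.1% in old libraries, with no overlap between the ages (exact permutation p = 0.1). Brain-enriched transcripts held 1.07 ± 0.0891% and 1.07 ± 0.220% (exact permutation p = 1), and the highest value, 1.32%, was in old animal 3. In bulk tissue, fewer cells of a type and less RNA per cell cannot be told apart.

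**Figure D4:**
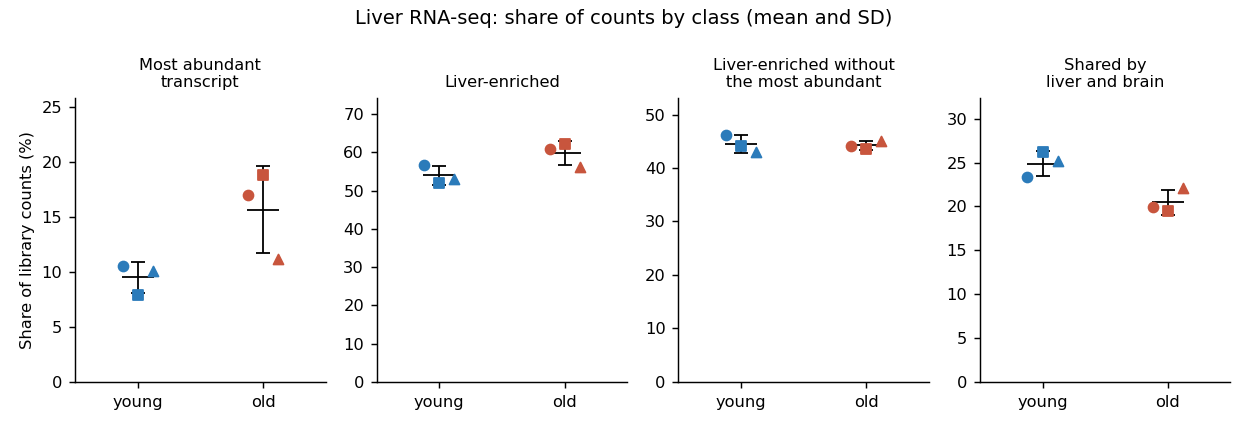
Share of the counts of each liver RNA-seq library held by the most abundant transcript, by liver-enriched transcripts, by these without the most abundant one, and by transcripts shared with brain, with 1 point for each animal and the mean and SD of 3 as bars. The old livers lie above the young ones for the most abundant transcript and below them for the shared class, and overlap with them in the other 2 panels.

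The second column of the count tables holds a whole number that no header defines and that is called length-like here. It is absent for 3097 transcripts and goes down to -17, which a length cannot, so that its meaning and any offset are unknown, and short and long below refer to this value alone. The tested transcripts had values from 4 to 8007 and a median of 421, and were put into 5 classes of nearly equal size. Transcripts with small values leaned to higher and those with large values to lower levels in old liver. In the shortest class, with values up to 209, the median log2 fold change was 0.13, and 66.8% of its 2448 transcripts were positive. The next classes had medians of 0.076, 0.014 and -0.036, and the longest, from 788 upwards, had -0.13 with 34.0% positive.

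The calls shifted along the same order. At an adjusted p under 0.10 the shortest class had 96 higher and 43 lower, and the second 98 (4.02%) and 44 (1.80%). The third had 72 (2.95%) and 91 (3.73%), the fourth 59 (2.42%) and 137 (5.62%) and the longest 29 and 232. Over all tested transcripts 2.9% were higher and 4.48% lower. Without young animal 1 the shortest class had 165 higher and 79 lower and the longest 104 and 352. Without old animal 3 these were 52 and 7 and 16 and 68, and without old animal 2 they were 63 and 26 and 23 and 180. Over all tested transcripts there were 801 higher and 919 lower without young animal 1. There were 185 and 164 without old animal 3, and 253 and 449 without old animal 2. Leaving out any other animal left no calls in either class. In the longest class 9.53% of transcripts were lower and 1.19% higher, against 1.76% and 3.92% in the shortest. Ages did not overlap, lower in old, for 27.4% of the longest class and 7.35% of the shortest, where 15.4% of all tested transcripts did so. The median of this value was 689 among transcripts called lower and 322 among those called higher.

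All 3 old animals shared the contrast between the shortest and the longest class. The median deviation of the shortest class was -0.094, -0.029 and -0.041 in young animals 1 to 3 and 0.12, 0.038 and 0.017 in old animals 1 to 3. For the longest class it was 0.057, 0.079 and 0.063 in young and -0.12, -0.047 and -0.036 in old animals. The ages did not overlap in either class, and old animal 1 lay farthest from the young animals in both. Without old animal 1 the medians of the log2 fold change were 0.10 in the shortest and -0.099 in the longest class. Spearman's rho between log2(CPM + 0.5) and the length-like value across transcripts was 0.265, 0.264 and 0.267 in young and 0.207, 0.236 and 0.248 in old libraries (exact permutation p = 0.1, which is the least that 3 animals an age allow). The difference of -0.035 ranged from -0.044 to -0.023 with each library left out, the smallest without old animal 1. Restricted to an average log2 CPM of at least 2, the difference was -0.058. Transcripts are not independent of each other, and the 5 classes come from the same libraries.

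The median was higher in the short than in the long class within each class of abundance and in 4 of the 5 organ classes. The tested transcripts were cut into 3 nearly equal classes of the length-like value, whose sizes differ within a class of abundance. Between a log2 CPM of 2 and 6 the short class of 2295 had 113 higher and 29 lower (4.92% and 1.26%). The long class of 2507 had 35 and 226 (1.40% and 9.01%), and the medians were 0.12 and -0.11. At a log2 CPM of 6 and over the short class of 399 had 12 and 14 (3.01% and 3.51%). The long class of 833 had 11 and 86 there (1.32% and 10.3%). Under 2 the medians were 0.13 and 0.013, but the calls had nearly the same balance. They were 38 higher and 20 lower in the short class of 1373 (2.77% and 1.46%). In the long class of 723 they were 27 and 15 (3.73% and 2.07%). For shared transcripts the medians were 0.081 in the short and -0.090 in the long class, for brain-leaning ones 0.13 and -0.13, for brain-enriched ones 0.18 and -0.042, and for liver-leaning ones 0.16 and -0.017. Liver-enriched transcripts showed medians of -0.027 in the short, -0.030 in the middle and -0.026 in the long class. With the trend of each library with the length-like value removed, 679 transcripts passed at an adjusted p under 0.10 (240 higher, 439 lower), 607 of them among the 901, and the class medians lay at -0.0058 in the shortest and -0.033 in the longest class.

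Footprints of the same livers did not show the order by length. Among the 11113 transcripts tested in both assays, the median log2 fold changes of footprints were -0.011, -0.0041, -0.0072, 0.025 and 0.043 from the shortest to the longest class. The footprint deviations of the longest class were 0.018, -0.040 and -0.0080 in young and 0.0021, 0.033 and 0.033 in old animals, so the ages overlapped. Over these transcripts the footprint levels of young animals gave a rho of 0.0713 to 0.0929, and those of old animals 0.0889 to 0.0996 (exact permutation p = 0.3). The difference of the RNA-seq rho and the footprint rho of each animal was 0.213, 0.234 and 0.231 in young and 0.151, 0.172 and 0.194 in old rats, with no overlap (exact permutation p = 0.1). Brain RNA-seq gave 0.334 to 0.353 in young and 0.337 to 0.357 in old animals (exact permutation p = 0.6), and the difference of liver and brain rho also did not overlap between ages (exact permutation p = 0.1). RNA quality and the position of reads along transcripts are not recorded in these tables, and their part in the order by length was not tested.

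**Figure D5:**
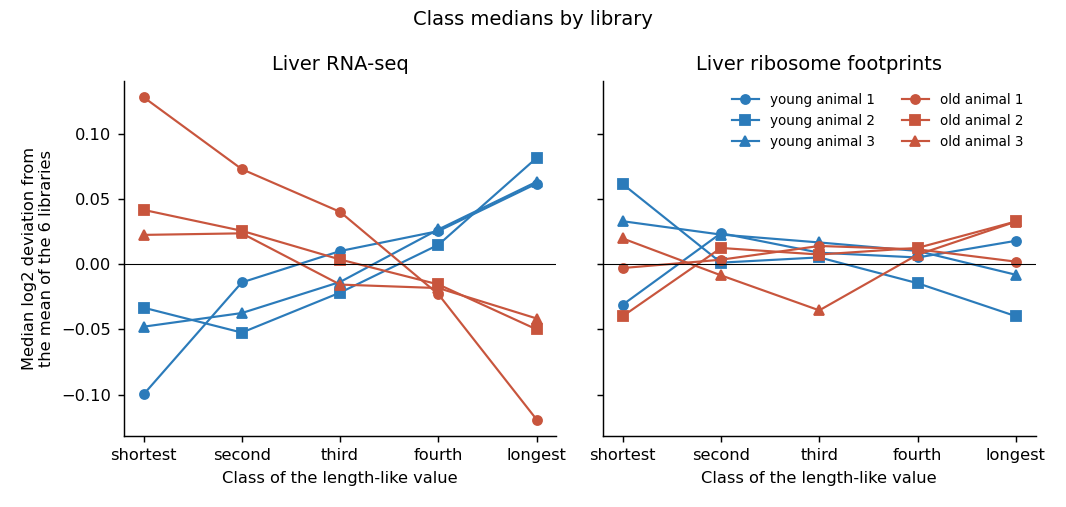
Median log2 deviation of each class of the length-like value from the mean of the 6 libraries, in liver RNA-seq (left) and in footprints of the same livers (right), with 1 line for each animal, young in blue and old in red. In RNA-seq the 3 old animals lie above the young ones in the shortest class and below them in the longest, and in footprints the ages overlap in both.

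Transcripts higher and lower in old liver RNA-seq also differed in what their footprints showed. Of the 354 higher transcripts 313 were tested in footprints, with a median log2 fold change of 0.82 in RNA-seq and 0.50 in footprints. Footprints of 144 of these had an unadjusted p under 0.05 in the same direction and 1 in the opposite one. Of the 547 lower transcripts 497 were tested in footprints, with a median of -0.67 in RNA-seq and -0.060 in footprints. Of these 73 had an unadjusted p under 0.05 in the same direction and 11 in the opposite one. The sign was shared by 91.7% of the higher and 58.4% of the lower transcripts. Over all 11113 transcripts tested in both assays footprints were higher in old liver for 51.8%, and at an unadjusted p under 0.05 they were higher for 703 and lower for 657. In the longest class, 225 lower transcripts had medians of -0.61 in RNA-seq and -0.033 in footprints, and the 22 higher ones had 1.18 and 1.10. Both assays come from the same 6 livers, so the footprints are a second measurement and not further animals, and the difference between the higher and the lower transcripts was not tested. In brain RNA-seq of the same animals the median log2 fold change was 0.090 for the 309 tested among the higher transcripts. For the 519 tested among the lower ones it was -0.042. The sign in brain was that in liver for 220 of the higher (71.2%) and 356 of the lower transcripts (68.6%). Of all 11484 transcripts tested in both organs, 49.97% were higher in old brain.

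Whether the age difference of a transcript was another in liver than in brain was tested as an interaction over the 12 RNA-seq libraries. Of 14762 transcripts 151 passed an adjusted p under 0.05 (1.02%), 52 with a more positive and 99 with a more negative difference in liver (edgeR's quasi-likelihood test). With each animal as a block, since brain and liver come from the same rats, 2 passed, both more positive in liver. Leaving out young animal 1 gave 564, old animal 2 gave 211 and old animal 3 gave 59. Leaving out any of the other 3 animals gave 1. ENSRNOT00000010238 was among the calls of both fits, with a difference of 5.71 on the log2 scale (adjusted p = 0.000124) and of 5.68 with the block (adjusted p = 0.0297 by edgeR).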

How the data were processed

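The authors deposited 1 table per library: whole-number counts per transcript, not normalised, and a second column without a header, another value that the labels do not describe (absent for 3097 transcripts, all at 0 counts). As tools the submitters' processing notes list TopHat2 2.0.10, Bowtie 1.0.0.0 and DESeq, and as build rn4. No source used here gives the annotation or counting rule, so near-identical transcripts are uncertain, and 32 tested transcripts shared all their counts with another.

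Transcripts passing edgeR's filter (minimum count 10, minimum total 15) were tested by its robust quasi-likelihood F test (version 4.0.16, R 4.3.3) with TMM factors and age as the single term, two-sided, with Benjamini-Hochberg adjustment. Printed CPM values are TMM-scaled, and standard errors come from the F statistic. Single values per library were compared by exact permutation tests (SciPy 1.17.1), which with 3 against 3 cannot go below 0.1. The main fit, but none of the alternatives, was also run on simulated counts with known changes. Those counts had no library standing apart and no age trend with the length-like value. The alternatives include DESeq2 1.42.0 and limma-voom (limma 3.58.1). The named transcripts are those with an adjusted p under 0.05, up to 2 a direction. Where a direction had none, they are the 2 largest changes among transcripts without overlap at an adjusted p under 0.10 and log2 CPM averaging 0 or more. The most abundant transcript was named after its values were seen. Marker and gene lists could not be applied without names. The transcripts, classes and tests were chosen with earlier results of these data known. Deviations from the age mean correlated between liver RNA-seq and footprints of one title code at 0.456 to 0.792, and between liver and brain RNA-seq at 0.0026 to 0.192.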

Additional observations from a re-analysis of the deposited data

Results flagged for a closer look

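The age difference of ENSRNOT00000010238 and that of ENSRNOT00000022049 differed between liver and brain by the interaction test. For ENSRNOT00000010238 the difference was 5.71 on the log2 scale, with 0.155 to 0.594 CPM in young and 13.7 to 23.0 CPM in old liver, and 14.98 to 19.4 CPM in young and 16.5 to 17.3 CPM in old brain RNA-seq. For ENSRNOT00000022049 it was -3.78 (adjusted p = 0.0381 by edgeR), with 4.06 to 10.6 CPM in young and 0.106 to 1.02 CPM in old liver and 237 to 274 CPM in young and 231 to 237 CPM in old brain. With each animal as a block the second difference was -3.75 and did not pass (adjusted p = 0.116 by edgeR).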

How the results depend on the processing

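The count of 2 at an adjusted p under 0.05 was 1083 by DESeq2, 0 by limma-voom (2756 at an unadjusted p under 0.05), 143 with no filter on low counts and 2254 with 1 estimate of the spread from the 12 RNA-seq libraries of both organs. It was 2 or 3 with other scaling factors, the 10 most abundant transcripts left out, an average log2 CPM of at least 2, thinning to 17932008 counts or the length trend removed, and 0 to 641 with each library left out. The count of 901 at 0.10 was 1612 by DESeq2 and 3424 with the spread over all 12 libraries, 679 to 919 under the others except the block, and 0 to 1720 with each library left out. With the replicate number as a block the counts were 79 and 441. Equal numbers mark different animals of the 2 ages, whose deviations correlated at -0.034, -0.074 and 0.21, so the block is no pairing. The interaction count of 151 was 2 with each animal as a block and 1 to 564 with each animal left out. The difference in the brain-enriched share, 0.0013 percentage points, was -0.108 with classes from ribosome profiling, -0.0060 with a class limit of 5 and -0.125 to 0.072 with each library left out. With each library left out, the difference in the share of the 10 most abundant transcripts kept its sign (4.45 to 8.40 percentage points), as did that of the liver-enriched share (4.67 to 7.64) and that of rho (-0.044 to -0.023); a pseudocount of 2 cannot change a rank correlation. The causes were not tested. Thinning to equal depth left 839 of 11876 tested transcripts at 0.10, of which 778 were among the 901.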

Other observations

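More transcripts were detected in the old libraries, which were also the deeper ones, but within each age the deepest library had the fewest. Transcripts with at least 1 count numbered 14023 to 14378 in young and 14489 to 14778 in old liver, with no overlap. With all libraries thinned to 17932008 counts they numbered 13929 to 14378 and 14142 to 14533, and the ages overlapped (exact permutation p = 0.7). The highest number at equal depth was in old animal 3 and the lowest in young animal 1.

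The spread between animals of one age was similar in both ages. The median SD of log2(CPM + 0.5) over the 12198 transcripts was 0.17 in young and 0.18 in old liver, and 53.5% of transcripts had the larger SD in old animals. In the liver-enriched class the medians were 0.22 and 0.29, and in the class with an average log2 CPM of 10 and over 0.21 and 0.29. In the shortest class of the length-like value they were 0.19 and 0.17.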
